A study of Mus musculus with 23 samples.

Results

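Complement is a set of proteins that tag targets for uptake and attract phagocytes, and 9 genes of this system were followed in microglia, the resident macrophages of the brain. The genes were C1qa, C1qb and C1qc, the 3 chains of the C1q recognition molecule, C3 and C4b, the central components, Cfb and Cfp, which encode factor B and properdin of the alternative pathway, and Itgam and Itgb2, which encode the 2 chains of complement receptor 3 (CD11b and CD18). They were found by their symbols among the 53090 genes of each deposited table. The 9 symbols matched 10 gene models, because a second model named Itgam overlaps the first, and all 10 were among the 18720 genes that passed the filter on low counts and were tested.

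Libraries of poly(A) RNA came from brain microglia of female C57BL/6 mice in 4 groups: young (Y, n = 7), young repopulated (Y-re, n = 3), old (O, n = 5) and old repopulated (O-re, n = 8). For depletion, mice ate chow with PLX5622, an inhibitor of the receptor CSF1R, at 1200 ppm, and treatment controls ate the same AIN-76A chow without the drug. In the repopulated groups microglia had returned after such depletion. Ages, the length of treatment, the time allowed for return and which of the Y and O mice ate control chow are not given in the sources used here. Protocols in the labels describe magnetic selection with beads against CD11b, the product of Itgam, followed by culture, whereas the extraction text names cells sorted by flow cytometry. The labels do not say whether a library is 1 mouse, so p-values measure the spread between these libraries.

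In the classical pathway C1q binds a surface and its proteases cleave C4 and C2, which leads to cleavage of C3. In the alternative pathway factor B joins deposited C3 fragments, and properdin stabilises the enzyme that forms. Complement receptor 3 binds cleaved C3 on the target and drives its uptake. In the brain microglia are a main source of C1q, and C1q, C3 and this receptor are known for their part in the removal of synapses.

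The genes lie on 5 chromosomes of the mouse build GRCm38 (GENCODE M21). C1qb (chr4:136880129-136886187), C1qc (chr4:136889804-136893065) and C1qa (chr4:136895917-136898803) are neighbours on the minus strand. C4b (chr17:34728380-34743882), Cfb (chr17:34856374-34862518) and C3 (chr17:57203970-57228136) share chromosome 17, also on the minus strand. Cfp lies at chrX:20925454-20931555 on the minus strand, Itgam at chr7:128062640-128118491 and Itgb2 at chr10:77530252-77565708, both on the plus strand. The counts of 3 of these genes are uncertain because other genes share their reads. C4b has the near-identical copy C4a (at most 1.69 CPM, counts scaled to the library's total). Cfb is overlapped by the readthrough gene Gm20547 (at most 6.84 CPM), which also overlaps C2, and Itgam is overlapped by its second model.

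Promoter sequences of the RefSeq build GRCm38.p6 were at hand for 5 of the 9 genes (C1qb, C1qc, C3, Cfp and Itgam), and the 250 bases before the start were searched. Those of C1qb, C3 and Itgam are shown, 5′ to 3′ on the gene's strand, for 1 C1q chain, the central component that rose and the receptor chain. They cover chr4:136886201-136886450 (minus strand), chr17:57228137-57228386 (minus strand) and chr7:128062390-128062639 (plus strand). Capitals mark matches, on either strand, to GAGGAA, bound by the macrophage factor PU.1, or to TTGCNNAA, bound by C/EBP factors.
C1qb: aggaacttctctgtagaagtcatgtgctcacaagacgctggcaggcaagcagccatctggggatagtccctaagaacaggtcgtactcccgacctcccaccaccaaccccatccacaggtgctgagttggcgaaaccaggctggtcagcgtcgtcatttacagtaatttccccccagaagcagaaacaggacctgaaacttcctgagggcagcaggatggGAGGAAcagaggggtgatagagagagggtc
C3: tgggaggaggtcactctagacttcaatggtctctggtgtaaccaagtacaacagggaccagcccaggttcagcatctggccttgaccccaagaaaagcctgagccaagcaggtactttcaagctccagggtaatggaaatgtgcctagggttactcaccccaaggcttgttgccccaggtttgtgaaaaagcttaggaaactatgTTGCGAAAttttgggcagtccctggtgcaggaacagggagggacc
Itgam: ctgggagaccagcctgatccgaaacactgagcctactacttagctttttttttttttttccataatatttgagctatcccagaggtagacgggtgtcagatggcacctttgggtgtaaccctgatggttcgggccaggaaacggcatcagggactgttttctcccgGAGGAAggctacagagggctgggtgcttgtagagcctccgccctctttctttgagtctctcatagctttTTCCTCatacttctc

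The PU.1 letters stood 30 bases before the RefSeq start of C1qb, 193 before that of C1qc, and 84 and 15 before that of Itgam. They occur in 23.3% of all 32851 promoter windows of this length. The C/EBP letters stood 45 bases before the start of C3 and occur in 9.56% of the windows. Cfp held neither. None of the 5 windows held the AP-1 letters TGANTCA (6.75% of windows). A match of letters is a description of the window, and no overlap between motifs occurred. The C1qc window (chr4:136892915-136893164, minus strand) partly overlaps the GENCODE gene given above. Its distance therefore holds for the RefSeq start only.

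Each library held 43.66 to 58.19 M counts (M, mega). Young replicate 3 stood apart, with 16379 genes with a count against 17603 to 22147 elsewhere, and results are given without it where it moves them. Sample titles number the libraries, and 2 runs of numbers are set apart here: numbers 1 to 11 hold 3 Y, 2 O and 5 O-re libraries, and numbers 12 to 24 hold 4 Y, 3 Y-re, 3 O and 3 O-re libraries. The sources used here do not say what the numbers stand for, so each comparison was also fitted within each run. The microglia marker list (10 genes, among them Csf1r) summed to 26110 to 31969 CPM in young, 23066 to 26800.3 in young repopulated, 10369 to 26582 in old and 9814 to 30013 in old repopulated libraries (10369 and 9814 being the lowest of their groups). The monocyte list (10 genes, led by Fn1 and Chil3) summed to 301 to 1667, 637 to 1126, 507 to 4725 and 373 to 7544 CPM in the same order of groups. No gene of either list was at 0 in all libraries of a group. The neutrophil sums (led by Csf3r and S100a9) ranged from 269 to 702 CPM and those of border macrophages (led by Stab1 and F13a1) from 639.9 to 2910.3 CPM over all libraries. Most of these sums was 1 gene: Csf3r averaged 505 CPM in young, 391 in old and 332 in old repopulated libraries, and Stab1 1269, 1124 and 1260. In old versus young 8 of 9 tested neutrophil genes and 8 of 10 border macrophage genes had higher values, which the sums do not show. Sums of the other lists ranged from 1.36 to 39.9 CPM for B cells (led by Cd79b and Igkc), 0 to 3.51 for T and NK cells (Klrb1c and Cd2), 20.9 to 179.8 for astrocytes (Slc1a3 and Gfap), 95.4 to 139 for oligodendrocytes (Cnp and Mbp), 18.8 to 65.2 for endothelium (Flt1 and Pecam1) and 0.378 to 4.69 for neurons (Rbfox3 and Snap25).

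The 3 C1q chains were by far the most abundant of these genes. In CPM all of them were lower in every old library than in every young one, but edgeR called none of the 3 over all libraries. The share of all genes that separate in this way was not counted. In TPM C1qa and C1qc of old replicate 1 (6213 and 5106) lay above those of young replicate 3 (6046 and 4855). Per length, in TPM (transcripts scaled to the library's total), C1qb averaged 5966, C1qa 5534 and C1qc 4415 over the 23 libraries, against 746 for Itgam, 496 for Itgb2, 65.0 for C4b, 55.9 for Cfb, 51.7 for Cfp and 47.8 for C3. Together the 3 chains took 1.777 to 1.991% of all TPM in young, 1.74 to 1.90% in young repopulated, 0.818 to 1.779% in old and 0.795 to 1.87% in old repopulated libraries. The old and young shares thus just overlapped.

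C1qa was measured at 3593 (lowest), 3974 (median) and 4069 (highest) CPM in the 7 young libraries. Young repopulated libraries 1 to 3 held 3763, 3787 and 4139.5 CPM of C1qa, within or just above the young range. Old libraries 1 to 5 held 3524, 3041, 1522, 2904 and 2320.0 CPM. Old repopulated libraries ranged from 1545 over a median of 2821 to 4168 CPM, so that this group spanned nearly the whole range of the other 3. The coefficient of variation of C1qa was 4.52% in young and 5.41% in young repopulated libraries, against 28.9% in old and 33.5% in old repopulated libraries.

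C1qb and C1qc followed the same pattern. C1qb lay between 3946 and 4759.5 CPM in young and between 2118 and 3851 CPM in old libraries, and C1qc between 3433 and 3836 CPM in young and between 1491 and 3366 CPM in old libraries. In old versus young the log2 fold changes were -0.55 ± 0.21 for C1qa, -0.43 ± 0.19 for C1qb and -0.51 ± 0.21 for C1qc (± SE). None of the 3 passed (edgeR's quasi-likelihood test, Benjamini-Hochberg adjusted p = 0.189, 0.265 and 0.232). Their CPM ranges in old and young did not overlap, but the share of all genes that separate in this way was not counted. Voom with sample quality weights called all 3 (-0.60, -0.44 and -0.54), in a fit that called 12.6% of all genes. Over all 18720 genes the median log2 change was -0.01.

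The size of this difference depended on the run of library numbers. Within numbers 12 to 24 all 3 chains fell in old versus young, by 0.80, 0.60 and 0.74 on the log2 scale for C1qa, C1qb and C1qc (edgeR adjusted p = 0.0134, 0.0169 and 0.0177), in a fit that called 15.7% of all genes. Within numbers 1 to 11 the changes were -0.24, -0.21 and -0.20, and none of the 3 was called, in a fit of 3 young and 2 old libraries that called 1 gene in all. The difference between the runs in this change was not tested.

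Old repopulated libraries showed the same split. Within numbers 1 to 11 C1qa lay between 2726 and 4168 CPM (n = 5), and within numbers 12 to 24 between 1545 and 2239 CPM (n = 3), below all young libraries. Against young, C1qa fell by 0.997, C1qb by 0.84 and C1qc by 1.06 on the log2 scale within numbers 12 to 24 (edgeR adjusted p = 0.00131, 0.000883 and 0.000822), where 41.1% of all genes were called. Over all libraries the changes were -0.40 ± 0.19, -0.29 ± 0.17 and -0.43 ± 0.18 and were not called (edgeR adjusted p = 0.142, 0.256 and 0.109). With the run as a term beside the group they were -0.56, -0.43 and -0.59 and called (edgeR adjusted p = 0.0141, 0.028 and 0.00911).

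The 4 libraries lowest in C1q were those lowest in the microglia marker list and highest in the monocyte list. Old replicate 3 held 1522 CPM of C1qa, 10369 CPM of the microglia list and 4725 CPM of the monocyte list, and old repopulated replicate 8 held 1545, 9814 and 7428 CPM. At the other end, old repopulated replicate 1 held 3883, 30013 and 373 CPM. In old versus young all 10 microglia genes had lower values (1 called) and all 10 monocyte genes had higher values (6 called). Of all genes tested there, 0.235% were called lower and 2.6% higher. In bulk RNA, fewer microglia in a library and less C1q RNA per cell cannot be told apart, and the part of other cells in the C1q values was not tested.

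**Figure D1:**
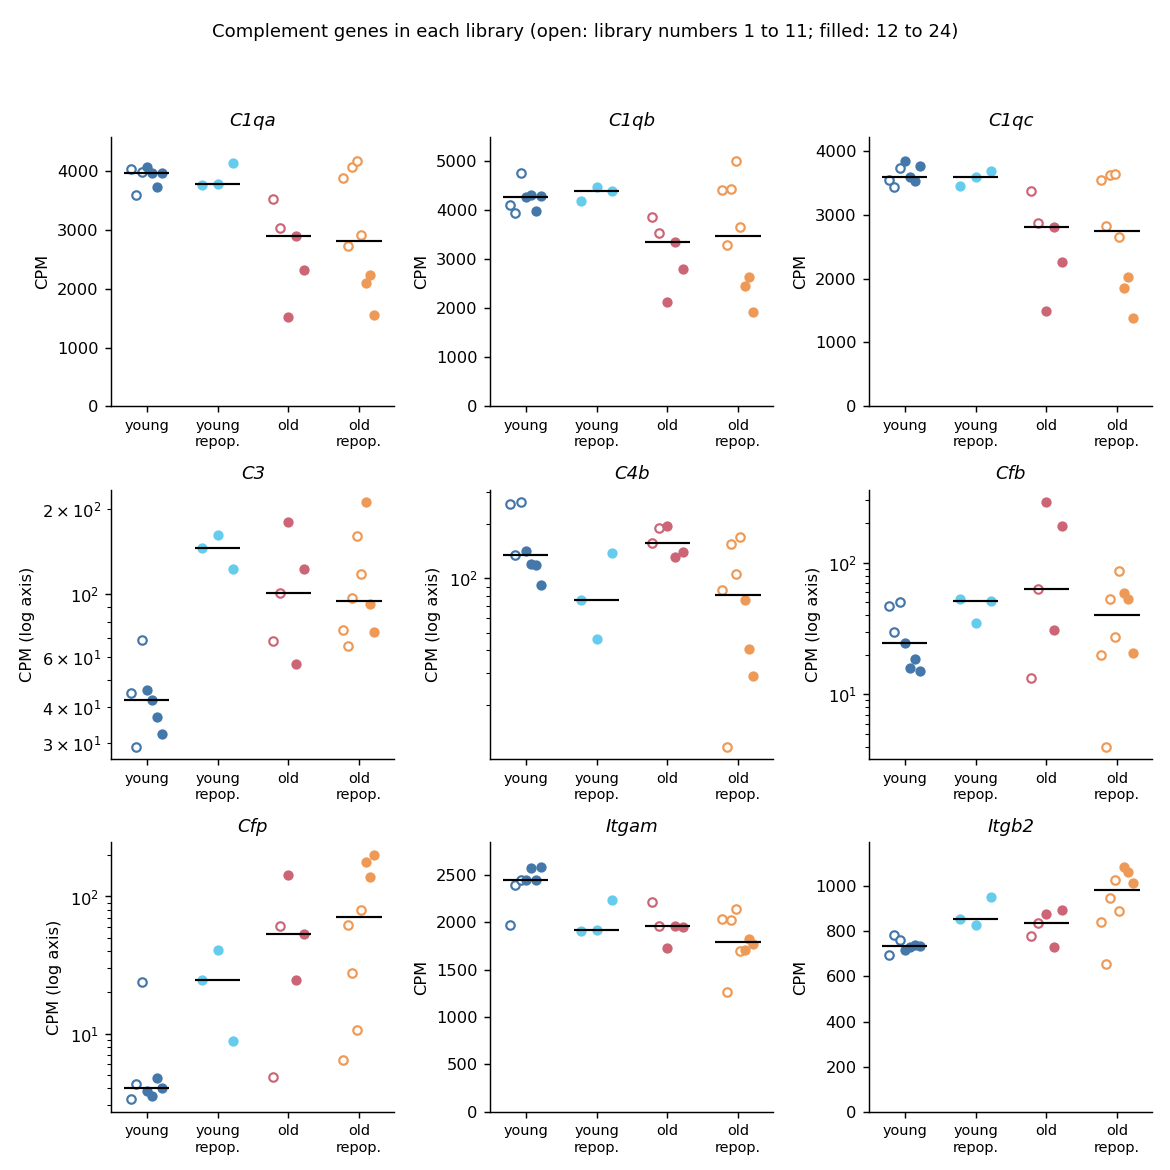
CPM of the 9 genes in each library (1 point per library, bars at group medians, log axes for C3, C4b, Cfb and Cfp; open points are library numbers 1 to 11, filled points 12 to 24). C1qa of the 5 old libraries lies between 1522 and 3524 CPM, below the young range of 3593 to 4069 CPM.

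The chains kept nearly fixed proportions while their sum varied. The TPM ratio of C1qc to C1qa had a median of 0.810 (0.752 to 0.822) in young, 0.789 (0.764 to 0.817) in young repopulated, 0.833 (0.811 to 0.842) in old and 0.775 (0.751 to 0.890) in old repopulated libraries. The ratio of C1qb to C1qa ranged from 0.965 to 1.14 in young, 1.01 to 1.12 in young repopulated, 1.04 to 1.33 in old and 1.04 to 1.19 in old repopulated libraries. These ranges overlap, and the highest value, 1.33, belonged to old replicate 3, the old library with the least C1q.

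**Figure D2:**
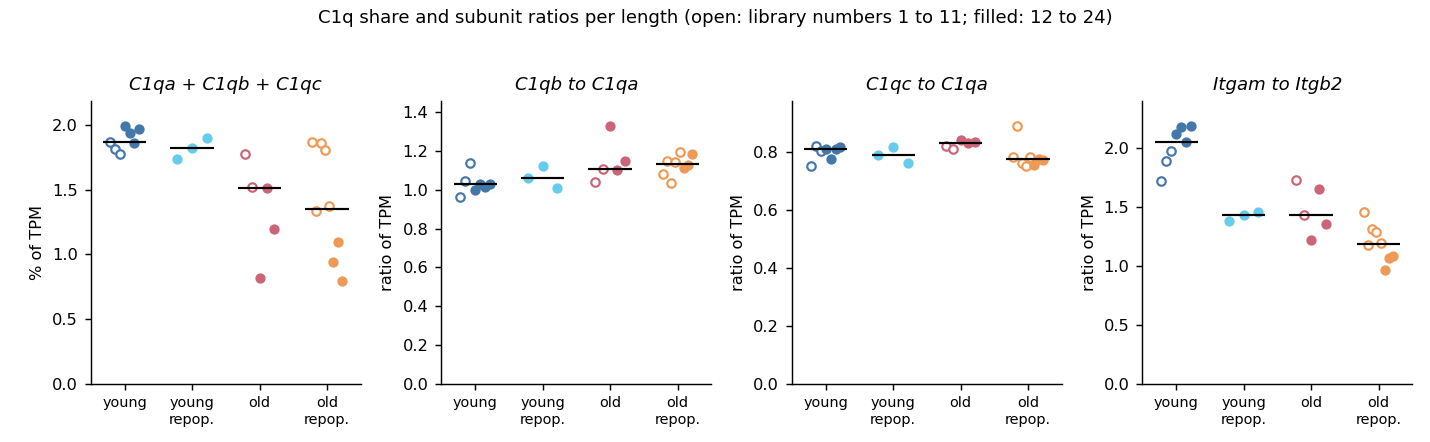
Share of C1q in all TPM (%) and TPM ratios of C1qb to C1qa, C1qc to C1qa and Itgam to Itgb2 in each library, by group (bars at medians, open points library numbers 1 to 11, filled points 12 to 24). The Itgam to Itgb2 ratio lies between 1.38 and 1.45 in the 3 young repopulated libraries, below the young range of 1.72 to 2.18.

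C3, whose cleavage is the shared step of all complement pathways, was low in young microglia and higher in each of the other 3 groups. The 7 young libraries held 29.0 (lowest), 42.3 (median) and 69.0 (highest) CPM. Young repopulated libraries 1 to 3 held 146, 162 and 123 CPM, all above every young library. Old libraries 1 to 5 held 68.2, 101, 179, 56.5 and 123 CPM, of which 2 (replicates 1 and 4) lay below the highest young one, replicate 3. The old repopulated group ranged from 65.4 over 94.7 to 211 CPM.

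C3 rose 2.46-fold in old versus young (log2 fold change 1.30 ± 0.29, edgeR adjusted p = 0.0173). It rose 3.35-fold in young repopulated versus young (1.74 ± 0.33, edgeR adjusted p = 0.0099) and 2.60-fold in old repopulated versus young (1.38 ± 0.27, edgeR adjusted p = 0.00201). The 3 comparisons share the young libraries. Old repopulated and old libraries differed by only 0.08 ± 0.28 in C3, and this sign turned when old replicate 1 or 4 or old repopulated replicate 4 or 6 was left out (-0.05, -0.08, -0.01 and -0.12).

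Single libraries decided 2 of these calls. In old versus young C3 was no longer called without old replicate 3 (1.02, edgeR adjusted p = 0.111) or without old replicate 5 (1.24, edgeR adjusted p = 0.0536), the old libraries with the most C3. The young repopulated call was lost without replicate 1 (1.73, edgeR adjusted p = 0.0532) or replicate 2 (1.68, edgeR adjusted p = 0.0564) of the repopulated group. Without young replicate 3 the changes were 1.45, 1.90 and 1.53 in the order given. Within numbers 12 to 24 they were 1.60, 1.90 and 1.68 and called, and within numbers 1 to 11 old versus young was 0.82 and old repopulated versus young 1.12, neither called.

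The repopulation change of C3 in old less that in young mice was -1.66 ± 0.43 on the log2 scale, which did not pass (edgeR adjusted p = 0.347, unadjusted 0.000869), whereas voom with sample quality weights called it (-1.69). In young repopulated libraries 1 to 3 C3 was 146, 162 and 123 CPM and the monocyte list summed to 637, 1126 and 737 CPM, both highest in replicate 2. That sum lay within the young range of 301 to 1667 CPM and was mostly Fn1, while 8 of the 10 monocyte genes had higher values in young repopulated than in young libraries (median log2 change 1.23, 0 called, 4 at an unadjusted p under 0.05). In the old group C3 and the monocyte list were both highest in replicate 3 (179 and 4725 CPM). Of the old repopulated libraries richest in monocyte markers, replicate 6 held the most C3 (211 CPM, list 7544 CPM) and replicate 8 nearly the least (73.6 CPM, list 7428 CPM). The part of monocytes in the C3 values was not tested.

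C4b, which with C2 forms the C3-cleaving enzyme of the classical pathway, was not called by edgeR in any comparison over all libraries without a term for the run. Young libraries ranged from 91.3 over 135 to 264 CPM, young repopulated libraries 1 to 3 held 75.4, 46.4 and 138 CPM, and old libraries 1 to 5 held 156, 189.5, 196, 132 and 140.0 CPM. In old repopulated libraries C4b ranged from 11.7 over 81.1 to 169 CPM. The groups overlapped, and the means of old (163 ± 28.8 CPM, SD, n = 5) and young (161 ± 69.8 CPM, SD, n = 7) were nearly equal. Its log2 change after repopulation was -0.95 ± 0.43 in old and -0.89 ± 0.56 in young mice (edgeR adjusted p = 0.427 and 0.482). Within numbers 12 to 24 its change in old repopulated versus old was -1.68 and called (edgeR adjusted p = 0.0185), in a fit that called 12.7% of all genes, and within numbers 1 to 11 it was -0.70 and not called. Against young, C4b in old repopulated libraries had a log2 change of -0.94 ± 0.40 (edgeR adjusted p = 0.112). That change was called with the run as a term (-1.11, edgeR adjusted p = 0.0312) and within numbers 12 to 24 (-1.28, edgeR adjusted p = 0.0146), and by voom (-1.05), and not within numbers 1 to 11 (-1.05).

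Factor B RNA (Cfb) varied more among old libraries than in any other group. Young libraries ranged from 15.1 over 24.4 to 50.3 CPM, and young repopulated libraries 1 to 3 held 53.1, 35.2 and 51.2 CPM. Old libraries 1 to 5 held 13.3, 63.5, 290.2, 30.8 and 190.3 CPM, so that 2 of the 5 lay above every other library and 1 below every young one. In old repopulated libraries Cfb ranged from 4.002 over 40.0 to 86.9 CPM. The log2 change in old versus young was 2.04 ± 0.61 (edgeR adjusted p = 0.0765), and DESeq2 called it. It was also called by edgeR without old replicate 1 (2.36, edgeR adjusted p = 0.0189), old replicate 4 (2.28, edgeR adjusted p = 0.0462) or old repopulated replicate 2 (2.04, edgeR adjusted p = 0.0428). Within numbers 12 to 24 it was 3.21 and called (edgeR adjusted p = 0.00255), and within numbers 1 to 11 it was -0.14. Against old, Cfb in old repopulated libraries had a log2 change of -1.54 ± 0.59 (edgeR adjusted p = 0.308), which was -1.94 and called within numbers 12 to 24 (edgeR adjusted p = 0.0492).

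Properdin RNA (Cfp) was lowest in young libraries and had the largest rise of the 9 genes. The young libraries held 3.32 (lowest), 4.01 (median) and 23.8 (highest) CPM, and replicate 3, which held the highest value, was the only young library above 4.75 CPM. Young repopulated libraries 1 to 3 held 24.7, 40.9 and 8.85 CPM. Old libraries 1 to 5 held 4.81, 60.5, 143, 24.7 and 53.2 CPM, and old repopulated libraries ranged from 6.43 over 70.9 to 202 CPM. Except for young replicate 3, every young library lay below every library of the other 3 groups.

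Cfp rose 8.43-fold in old versus young (log2 fold change 3.08 ± 0.79, edgeR adjusted p = 0.0363) and 12.98-fold in old repopulated versus young (3.70 ± 0.77, edgeR adjusted p = 0.0034). In young repopulated versus young its change was 1.87 ± 0.86 and not called over all libraries (edgeR adjusted p = 0.306), and 2.65 and called within numbers 12 to 24 (edgeR adjusted p = 0.0104), which hold all young repopulated libraries. Without young replicate 3 the 3 changes were 3.85, 4.48 and 2.65 (edgeR adjusted p = 0.00845, 0.00106 and 0.108). The old versus young call was lost on leaving out any 1 of young replicates 1, 2, 4, 5, 6 and 7 or old replicates 2, 3 and 5, with changes of 2.40 to 3.10 and edgeR adjusted p up to 0.214. It was also lost with the run of library numbers as a term (2.75, edgeR adjusted p = 0.063). Within numbers 12 to 24 it was 4.19 and within numbers 1 to 11 1.63, called only in the former, and old repopulated versus young was 5.43 and 1.83, again called only in the former.

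Cfp and the monocyte list were high in the same libraries. Cfp was 202, 178 and 138 CPM in old repopulated replicates 8, 6 and 7, where the monocyte list summed to 7428, 7544 and 4105 CPM, and 143 CPM in old replicate 3, where it summed to 4725 CPM. In old repopulated replicate 1 Cfp was 6.43 CPM and the list 373 CPM. Monocyte markers were called higher for 6 of 10 genes in old versus young (2.6% of all genes) and for 7 of 10 in old repopulated versus young (9.29% of all genes). Among neutrophil markers 4 and 5 of 9 tested, and among border macrophage markers 3 and 6 of 10, were called higher in the same comparisons. The part of these cells in the Cfp values was not tested.

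**Figure D3:**
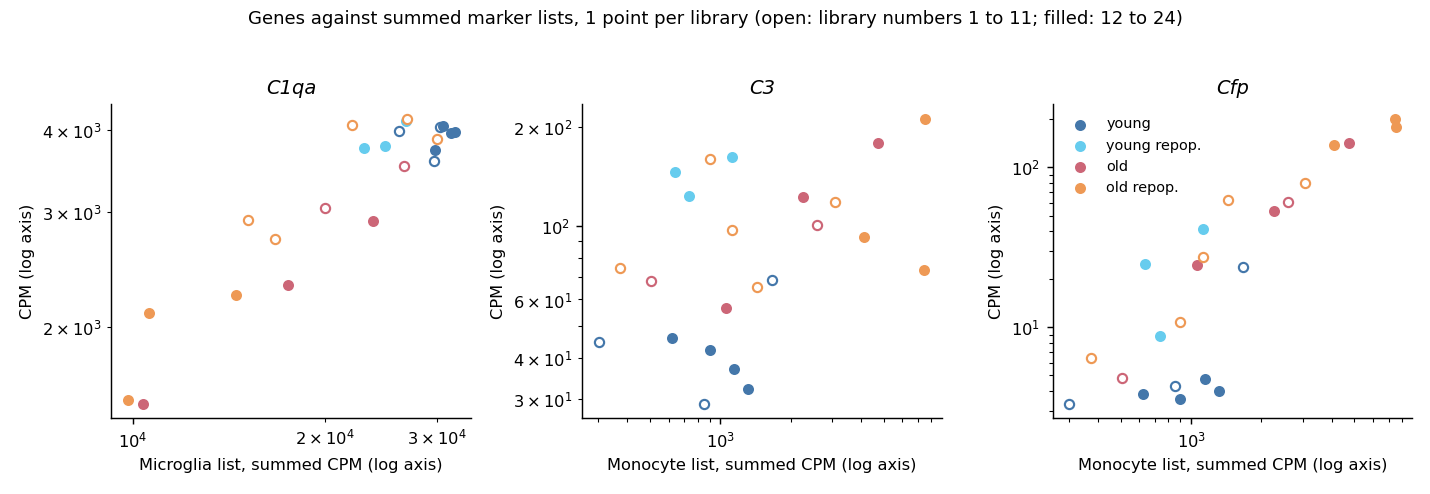
C1qa against the summed microglia markers, and C3 and Cfp against the summed monocyte markers, in CPM on log axes, 1 point per library coloured by group (open points library numbers 1 to 11, filled points 12 to 24). The 4 libraries with the most Cfp, 138 to 202 CPM, hold 4105 to 7544 CPM of the monocyte list.

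The 2 chains of complement receptor 3 moved in opposite directions in old repopulated versus young microglia. Itgam was measured at 1973 (lowest), 2451 (median) and 2587 (highest) CPM in young libraries and at 1906, 1925 and 2235 CPM in young repopulated libraries 1 to 3. Old libraries 1 to 5 held 2215, 1966, 1729, 1959 and 1951 CPM, and the old repopulated group ranged from 1260.2 over 1799 to 2140.0 CPM. All young libraries but replicate 1 lay above every library of the other 3 groups. Where cells were selected with beads against CD11b, as one of the protocols describes, the selection acted on the product of Itgam.

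Itgb2 was measured at 697 (lowest), 734 (median) and 785 (highest) CPM in young libraries. It was 856, 829.7 and 952 CPM in young repopulated libraries 1 to 3, all above the young range, and 781, 838, 877, 731 and 893 CPM in old libraries 1 to 5. The old repopulated range was 654 to 1086 CPM with a median of 982 CPM, the lowest being replicate 2, which also held the least Itgam, C4b and Cfb of all 23 libraries.

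Against young, in old repopulated libraries Itgam fell by 0.42 ± 0.10 on the log2 scale (0.749-fold, edgeR adjusted p = 0.00705) and Itgb2 rose by 0.35 ± 0.09 (1.27-fold, edgeR adjusted p = 0.0114). Both calls held without any 1 library. Within numbers 12 to 24 the changes were -0.50 and 0.54, both called, and within numbers 1 to 11 -0.31 and 0.23, neither called. In old versus young Itgam had a change of -0.30 ± 0.11 and Itgb2 of 0.16 ± 0.10, and in young repopulated versus young -0.25 ± 0.13 and 0.25 ± 0.12, none of them called (edgeR adjusted p = 0.178, 0.491, 0.371 and 0.308). Itgam was called within numbers 12 to 24 in old versus young (-0.41, edgeR adjusted p = 0.00744) and Itgb2 in young repopulated versus young (0.30, edgeR adjusted p = 0.0403), and voom called both as well as Itgam in young repopulated versus young (-0.27). The fit of only the groups compared also called Itgb2 in young repopulated versus young (0.26, edgeR adjusted p = 0.0396). Old repopulated and old libraries differed by -0.12 ± 0.11 in Itgam and 0.19 ± 0.10 in Itgb2, also not called (edgeR adjusted p = 0.796 and 0.526), except Itgb2 within numbers 12 to 24 (0.34, edgeR adjusted p = 0.0281).

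The proportion of both chains set the young group apart. Per length, the ratio of Itgam to Itgb2 ranged from 1.72 to 2.18 in young (median 2.05), from 1.38 to 1.45 in young repopulated (median 1.43), from 1.22 to 1.73 in old (median 1.43) and from 0.967 to 1.46 in old repopulated libraries (median 1.18). The young range lay above those of both repopulated groups and overlapped the old range only in old replicate 1 (1.73) and young replicate 1 (1.72). The ratio was 1.22 in old replicate 3 and 0.967, 1.06 and 1.08 in old repopulated replicates 6 to 8, whose monocyte lists summed to 4105 to 7544 CPM. It was 1.73 in old replicate 1 and 1.46 in old repopulated replicate 1, at sums of 507 and 373 CPM. In young repopulated libraries it was 1.38 to 1.45 at sums of 637 to 1126 CPM, within the young range of 301 to 1667 CPM. Those sums were mostly Fn1 (mean 899 CPM in young and 636 CPM in young repopulated libraries). Higher values in young repopulated than in young libraries were seen for 8 of the 10 monocyte genes (0 called). The part of other cells in Itgam, Itgb2 and their ratio was not tested. The second Itgam model held 2.72 to 10.95 CPM over all libraries and was not called in any comparison.

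Itgb2 also pairs with Itgax (CD11c, complement receptor 4) and Itgal (CD11a of LFA-1), and both of these alpha chains rose where Itgam did not. Itgax held 24.7 to 43.4 TPM in young libraries, 127, 70.0 and 120.3 TPM in young repopulated libraries 1 to 3, and 66.6, 74.8, 134, 65.8 and 135 TPM in old libraries 1 to 5. The old repopulated group ranged from 19.6 over 107 to 128 TPM, and its replicate 2 alone lay below the young range. The log2 changes of Itgax were 1.36 ± 0.29 in old, 1.65 ± 0.33 in young repopulated and 1.46 ± 0.27 in old repopulated libraries, each versus young (edgeR adjusted p = 0.0135, 0.0134 and 0.00146).

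Itgal held 8.57 (lowest), 18.1 (median) and 35.9 (highest) CPM in young libraries, 83.9, 107 and 69.1 CPM in young repopulated libraries 1 to 3, and 31.9, 46.5, 154, 37.0 and 135 CPM in old libraries 1 to 5. The old repopulated group ranged from 33.1 over 130 to 219 CPM. The highest young library, replicate 3, overlapped only with old replicate 1 and old repopulated replicate 1. Its changes were 2.04 ± 0.46, 2.15 ± 0.51 and 2.66 ± 0.44 in the same order (edgeR adjusted p = 0.018, 0.0386 and 0.000794). In old versus young Itgax and Itgal lost the call without old replicate 3 (1.18 and 1.68) or old replicate 5 (1.18 and 1.78). Against young, in young repopulated libraries, Itgax lost it without repopulated replicate 1 (1.49) or 3 (1.59), and Itgal without any 1 of these 10 libraries but young replicate 3 (2.00 to 2.29). With the run as a term Itgal also lost its call in young repopulated versus young (1.78, edgeR adjusted p = 0.0818). Within numbers 1 to 11 neither was called, with changes of 0.80 (Itgax) and 0.93 (Itgal) in old and 1.49 and 2.12 in old repopulated libraries, and within numbers 12 to 24 both were called in all 3 comparisons. Itgal was high where the monocyte list was high: 154 CPM in old replicate 3 (list 4725 CPM) and 176 to 190.1 CPM in old repopulated replicates 6 to 8 (4105 to 7544 CPM), against 33.1 CPM in old repopulated replicate 1 (373 CPM). Old repopulated replicate 2 held the most Itgal (219 CPM) with a list sum of 1439.6 CPM. Itgax was 120.3 to 127 TPM in young repopulated libraries with sums of 637 and 737 CPM. Those sums were mostly Fn1, while 8 of the 10 monocyte genes had higher values in young repopulated than in young libraries (0 called). The part of monocytes in the values of both alpha chains was not tested. As a share of Itgam TPM, Itgax stood at a median of 0.0383 in young and 0.151, 0.103 and 0.161 in young repopulated, old and old repopulated libraries.

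**Figure D4:**
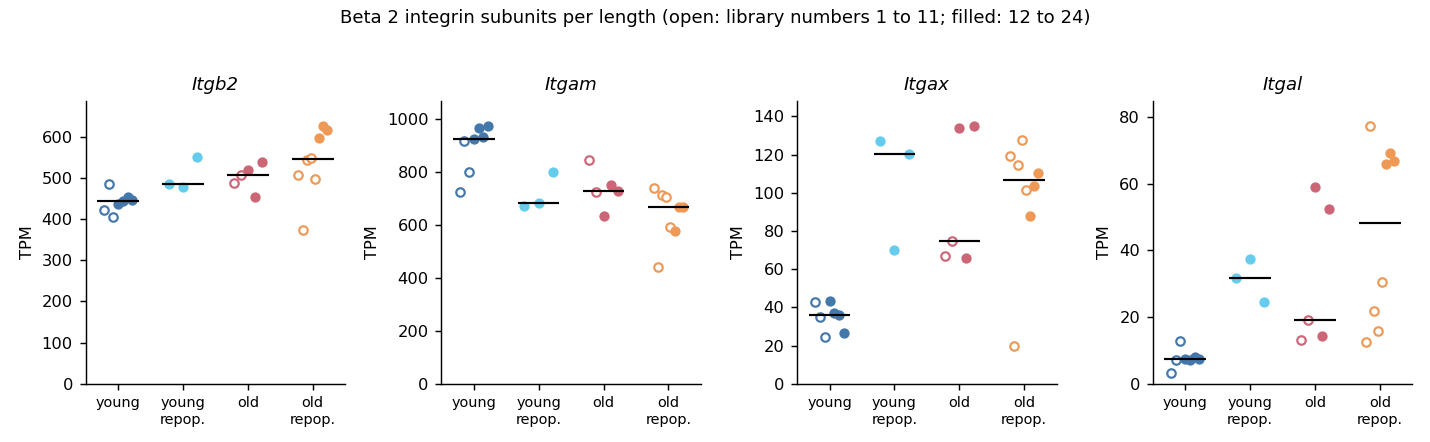
TPM of Itgb2 and of its partners Itgam, Itgax and Itgal in each library, by group (bars at medians, open points library numbers 1 to 11, filled points 12 to 24). Itgax lies between 24.7 and 43.4 TPM in young libraries and between 65.8 and 135 TPM in old libraries, while Itgam lies at 723 to 971 and 634 to 843 TPM.

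Counted over the 10 gene models, 2 were called higher in old versus young (C3 and Cfp) and 0 lower, where 2.6% of all tested genes were called higher. In young repopulated versus young 1 was called higher (C3, background 0.828%) and 0 lower. Old repopulated versus young had 3 higher (C3, Cfp and Itgb2, background 9.29%) and 1 lower (Itgam, background 5.92%). No member was called in old repopulated versus old by edgeR (background 0.278%), by DESeq2 or by voom with sample quality weights, although 2 (C4b and Cfb) had an unadjusted p under 0.05. Between both repopulated groups 0 were called by edgeR (background 0%, and 0 at an unadjusted p under 0.05) and 0 by DESeq2 (background 0.491%). Voom with sample quality weights called C1qa, C1qb, C1qc and Cfp there, and 3189 of all 18720 genes. In the interaction, the repopulation change in old less that in young mice, 0 were called by edgeR (background 0%) and 0 by DESeq2 (background 0.246%), voom called C3 (background 0.807%), and C3 and Cfb had an unadjusted p under 0.05 by edgeR. The median log2 change of the members was -0.07, 0.02, 0.08 and -0.23 in old versus young, young repopulated versus young, old repopulated versus old and old repopulated versus young, against -0.01, -0.04, 0.00 and -0.02 over all genes.

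**Figure D5:**
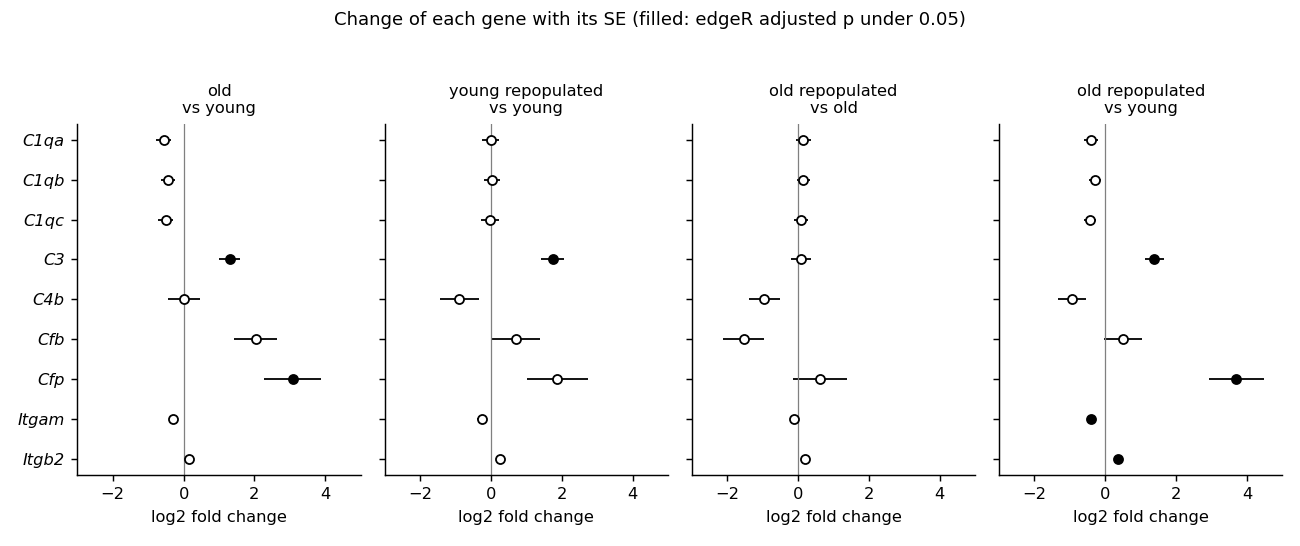
Log2 fold change of each of the 9 genes with its SE in 4 comparisons, filled where the edgeR adjusted p was under 0.05. C3 is filled in the 3 comparisons against young, at 1.30, 1.74 and 1.38, and no gene is filled in old repopulated versus old.

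Between both repopulated groups the C1q chains had log2 changes of -0.40 ± 0.24 (C1qa), -0.32 ± 0.21 (C1qb) and -0.41 ± 0.23 (C1qc) and Cfp one of 1.83 ± 0.99, none called (edgeR adjusted p = 0.492, 0.534, 0.475 and 0.457). All young repopulated libraries are in numbers 12 to 24. Within those numbers the changes were -1.01, -0.92, -1.05 and 2.78 and called, in a fit that called 36.3% of all genes.

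Of 58 other complement genes, written as lists by role that also hold partners of Itgb2, 35 were tested and 5 were called in any comparison. The counts were 3 higher and 0 lower in old versus young, 2 higher and 0 lower in young repopulated versus young, and 3 higher and 2 lower in old repopulated versus young, at the background shares given above. Between old repopulated and old libraries 0 were called by edgeR (background 0.278%) and 5 had an unadjusted p under 0.05. DESeq2 and voom each called 2 there (background 1.67% and 2.21%). The median log2 changes of the 35 tested genes were 0.07, -0.11, -0.09 and -0.23 in the same order of comparisons.

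Among 15 genes of the classical and lectin start, 11 were tested and C2, the protease that joins C4, was the only one called. C2 fell by 1.77 ± 0.40 in old repopulated versus young (edgeR adjusted p = 0.00532), from 5.65 ± 1.503 CPM (SD, n = 7) to 1.65 ± 1.24 CPM (SD, n = 8). Within numbers 1 to 11 its change was -1.41 and not called. The counts of C2 are uncertain, because Gm20547 overlaps it and averaged 2.41 CPM in young and 1.66 CPM in old repopulated libraries. Highest per length in this list were the collectin Colec12 (mean 9.12 TPM over all libraries) and the protease Masp1 (6.11 TPM). Colec12 held 26.5 ± 15.3 CPM (SD, n = 8) in old repopulated and 6.64 ± 4.36 CPM (SD, n = 5) in old libraries, a log2 change of 2.00 ± 0.47 that edgeR did not call (adjusted p = 0.074) and DESeq2 did (adjusted p = 0.000664). EdgeR called it without old replicate 2 (2.49) or old repopulated replicate 1 or 3 (2.16 and 2.10). Masp1 was not called in any comparison.

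Genes of the terminal pathway, which forms the membrane pore, were nearly absent: 6 of 7 fell under the filter, and the one tested, C8g, averaged 2.56 TPM. Cfd, the protease that activates factor B, also fell under the filter and was listed above 0 in old repopulated libraries only, at most 0.0459 CPM. Of 23 regulators 12 were tested. Csmd3, at a mean of 5.45 TPM, was the only regulator called, with a fall of 1.56 ± 0.48 in old repopulated versus young (edgeR adjusted p = 0.0316). That call was lost without young replicate 1 or 2 or old repopulated replicate 2, 5, 6 or 7 (-1.40 to -1.55). It was also lost with only the groups compared (-1.55) and within numbers 1 to 11 (-1.21).

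Of 12 genes listed as other receptors 11 were tested and 3 were called, Itgax, Itgal and Cd93. Itgal is on this list as a partner of Itgb2 (in LFA-1) and not as a complement receptor. Cd93, a lectin-like surface protein once proposed as a C1q receptor, rose by 4.12 ± 0.79 in old versus young (edgeR adjusted p = 0.00747) and by 4.08 ± 0.75 in old repopulated versus young (edgeR adjusted p = 0.00147). It held 6.53 (lowest), 10.6 (median) and 53.6 (highest) CPM in young libraries and 19.7 to 630.0 CPM in old libraries. In young repopulated versus young edgeR did not call it over all libraries and called it without young replicate 3 (3.52, edgeR adjusted p = 0.0256). DESeq2 (2.78), voom (3.30) and edgeR fits of only the groups compared (2.81) or of numbers 12 to 24 (3.47) also called it. With the run as a term edgeR did not (2.29, edgeR adjusted p = 0.221). Within numbers 1 to 11 Cd93 changed by 2.38 in old and 2.53 in old repopulated versus young, neither called. Those fits called 1 and 2 genes in all. Calr and Lrp1, which act together in the uptake of C1q-tagged cells, were highest per length (1260.2 and 516 TPM) and were not called in any comparison. The receptors for the C3 and C5 fragments, named here for their role and outside the rule for named genes, averaged 191 TPM (C3ar1) and 138 TPM (C5ar1) and were not called either.

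Among 9 genes that switch integrins on or off, 2 rose in old versus young (background 2.6%), Cyth1 (1.34 ± 0.31) and Cytip (3.24 ± 0.68), a cytohesin and its binding partner (edgeR adjusted p = 0.0187 and 0.011). Both lost the call without old replicate 3 (1.06 and 2.57), and Cyth1 also without old replicate 5 (1.19). Neither was called within numbers 1 to 11 (0.56 and 1.31). Compared with young, in old repopulated libraries Cyth1 (1.32 ± 0.28), Cytip (3.01 ± 0.64) and talin Tln1 (0.28 ± 0.08) rose and Apbb1ip fell by 0.30 ± 0.10 (edgeR adjusted p = 0.00381, 0.00368, 0.0179 and 0.0442). Of all genes, 9.29% were called higher and 5.92% lower there. The Apbb1ip call was lost in 17 of the 23 fits that left out 1 library (-0.35 to -0.26 over all 23). None of the 9 was called in young repopulated versus young or in old repopulated versus old, where 2 and 0 had an unadjusted p under 0.05.

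Across the 23 libraries, among 9610 genes compared, those with log2 CPM most like each member's were ranked by Pearson's r. Each point is a library, and the libraries share their groups, runs of numbers and cell mixture, so the values are descriptive. The 3 C1q chains were nearest to each other and to Itm2c, with r from 0.979 to 0.991. Nearest to Cfp were Crip1, Tgfbi and Metrnl (r from 0.982 to 0.984), and nearest to Cfb were Irf7, Ifi209 and Nlrc5 (0.904 to 0.943), genes known to answer interferon. C3 lay nearest to Npc2, Tpt1 and Slamf7 (0.853 to 0.870), and C4b to Iigp1, Treml2 and Apob (0.842 to 0.870). Itgam was most like Eya4, AU040320 and Asph (0.904 to 0.922) and Itgb2 was like Lat2 and Dock2 (0.921 and 0.868). With Spearman's rho all 3 nearest genes were kept for C1qa, C1qc and Itgb2 (for Itgb2 only 2 of them are named here). Of the 3, 2 were kept for C1qb and Cfp, 1 for C3 and Cfb, and 0 for C4b and Itgam.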

How the data were processed

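Libraries made from 2.4 to 147 ng of RNA by a stranded poly(A) method were read as single reads of 50 nt, per the labels' protocols. The submitters' processing notes name FastQC 0.11.5, STAR, RSEM, limma and GRCm38. Not given in the sources used here are other versions, the annotation and whether counting used strand. As the file headers show, the authors deposited 1 RSEM gene table per library with expected counts, TPM (scaled per length and to the library's total) and effective lengths. Of the deposited expected counts 87.26% were whole (tolerance 1e-06), and all were rounded here. No counting interval was added, since replicates give the error.

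In R 4.3.3, edgeR 4.0.16 (filterByExpr, TMM, glmQLFit, glmQLFTest) fitted all 23 libraries with 1 coefficient per group. P-values were Benjamini-Hochberg adjusted over 18720 genes, and genes were called under 0.05. CPM is TMM-scaled, TPM serves comparisons between genes, and log2 CPM used a prior count of 2. Alternatives were RLE factors, no filter, DESeq2 1.42.0, voom with sample quality weights (limma 3.58.1), only the groups compared, the run of library numbers as a term, each run alone and leaving out each library. The code was tested on simulated data.

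The members, lists and tests were chosen with earlier results of these data known. The text names every member. Of other complement genes it names those called, and the highest 2 per list per length. For each member it names the 3 most like genes of mean CPM of at least 5 without predicted, Rik or pseudogene names. Of integrin genes it names those called, and of each marker list the 2 highest in CPM. Some genes under these rules are not reported here.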

Additional observations from a re-analysis of the deposited data

Results flagged for a closer look

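In groups of 5 to 8 libraries, 30 sets of values (10 gene models, 3 groups) were searched for a library far from the rest, by Dixon's gap test at 95%. Chance marks about 1 in 20 such sets, and 4 were marked, all in the young group. Young replicate 3 held 4759.5 CPM of C1qb, where the other 6 young libraries lay between 3946 and 4297 CPM. The same library held 69.0 CPM of C3 against 29.0 to 46.0 CPM in the others. It also held 23.8 CPM of Cfp against 3.32 to 4.75 CPM. This is the library with the fewest genes with a count, 16379, and its monocyte list summed to 1667 CPM, the highest of the young group (301 to 1317 in the others). Young replicate 1 held 1973 CPM of Itgam, where the others lay between 2397 and 2587 CPM.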

How the results depend on the processing

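Of 423 log2 fold changes under alternatives other than a left-out library, 342 kept their direction and their side of the threshold, 25 lost a call, 54 gained one and 2 turned sign. Both were Cfb within library numbers 1 to 11, in old versus young (-0.14) and old repopulated versus young (-0.15). Of 1265 values with 1 library left out, 1198 kept both, 54 lost a call, 9 gained one and 4 turned sign, all C3 in old repopulated versus old (-0.12 to 0.36). The TPM ratios moved by less than 1 SD in 81 of 81 cases. Members called were 2 in old versus young, and 7 with voom, 1 with the run as a term, 0 within numbers 1 to 11 and 7 within 12 to 24. Between old repopulated and old 0 became 3 within 12 to 24. In young repopulated versus young 1 became 3 with voom, 2 with only the groups compared and 3 within 12 to 24. In old repopulated versus young 4 became 8 with voom, 8 with the run as a term, 0 within 1 to 11 and 8 within 12 to 24. Between both repopulated groups 0 became 4 with voom, 1 with the run as a term and 5 within 12 to 24, and in the interaction 1 with voom and 1 within 12 to 24. Other complement genes called in old versus young were 3, and 9 with voom, 0 within 1 to 11 and 7 within 12 to 24. Between old repopulated and old 0 became 2 with DESeq2, 2 with voom, 1 with the run as a term and 8 within 12 to 24. In young repopulated versus young 2 became 4 with DESeq2, 8 with voom, 6 with only the groups compared and 6 within 12 to 24. In old repopulated versus young 5 became 8 with DESeq2, 12 with voom, 0 within 1 to 11 and 15 within 12 to 24. Between both repopulated groups 0 became 5 with voom, 2 with the run as a term and 11 within 12 to 24, and in the interaction 1 with voom and 7 within 12 to 24. The cause was not tested. These fits differ in how many of all genes they call: for old versus young 2.83% by edgeR, 12.6% with voom, 3.3% with the run as a term, 0.00533% within 1 to 11 and 15.7% within 12 to 24. For old repopulated versus young the shares are 15.2%, 35.5%, 24.5%, 0.0107% and 41.1% in that order, and 19.7% with DESeq2. For young repopulated versus young they are 1.34% by edgeR, 4.46% with DESeq2, 13.8% with voom, 7.5% with only the groups compared and 9.3% within 12 to 24. Between old repopulated and old they are 0.278% by edgeR, 1.67% with DESeq2, 2.21% with voom, 0.609% with the run as a term and 12.7% within 12 to 24. Between both repopulated groups they are 0% by edgeR, 3189 of 18720 genes with voom, 4.52% with the run as a term and 36.3% within 12 to 24, and in the interaction 0%, 0.807%, 0.0374% and 8.87%. Leaving out each library, members called ranged from 0 to 3, 0 to 1 and 4 to 4, and other complement genes from 1 to 4, 0 to 3 and 4 to 8, in old versus young, young repopulated versus young and old repopulated versus young, and the latter from 0 to 2 in old repopulated versus old. No paired analysis was possible because the labels give no replicate number shared between groups.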
